A study of Mus musculus with 16 samples.

Results

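The genes described here carry out glycolysis, glucose uptake and the response to low oxygen. They were taken by symbol from a list of 33 genes, among them the glucose transporters, hexokinases, phosphofructokinases, lactate dehydrogenases, pyruvate dehydrogenase kinases and Hif1a with the hypoxia genes Egln3 and Bnip3. All 33 were among the 13085 genes of the deposited table, and all 33 passed the filter on low values (a level of 1 CPM or more in 2 or more of the 16 libraries, CPM being the read count scaled to the size of the library) that 12782 genes passed. The study sequenced polyadenylated RNA of C57BL/6 mouse monocytes of wild type (NFAM1+/+) and NFAM1-/- mice, to ask how the loss of NFAM1, a surface receptor with an activating signalling motif, affects monocyte activation. NFAM1-/- mice carried a germline Cas9 deletion of exons 2 and 3, so every cell of the animal lacked them. Cells were kept 6 or 24 h either with no stimulus or with IFN-γ plus MegaCD40L at 1 µg/mL, a multimeric CD40 ligand. The labels call the cells PBL monocytes, whereas the study's methods isolate them from bone marrow, and the 2 sources also differ on the dose of IFN-γ. There were 2 libraries for each genotype with and without the stimulus at 6 h. At 24 h each stimulus had 4 libraries, and for 4 of those 8 the title and the genotype tag name different genotypes, so the stimulus comparisons at 24 h were made without genotype. The libraries are named below by the number in their titles: 1, 2 (wild type), 3 and 4 (NFAM1-/-) unstimulated at 6 h, 26, 10 (wild type), 11 and 12 (NFAM1-/-) stimulated at 6 h, 43 to 46 unstimulated at 24 h and 55 to 58 stimulated at 24 h.

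Glycolysis splits glucose into pyruvate and yields ATP without oxygen. Glucose enters through facilitative transporters, hexokinases trap it as glucose 6-phosphate, phosphofructokinase commits it to breakdown, and lactate dehydrogenase turns pyruvate into lactate, which monocarboxylate transporters export. Pyruvate dehydrogenase instead passes pyruvate to the mitochondria, and its kinases switch it off. HIF-1α, the oxygen-regulated subunit of hypoxia-inducible factor, drives many of these genes, and prolyl hydroxylases such as Egln3 mark it for destruction when oxygen is present. Monocytes and macrophages are known to raise glycolysis when inflammatory signals activate them.

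Depth ran from 48295939 to 88514341 reads on the listed genes. Monocyte markers (10 of 10 measured) summed to 23800 to 26100 CPM without the stimulus and to 8340 to 10400 CPM with it at 6 h, and to 27500 to 31300 and 8590 to 11700 CPM at 24 h. Most of the unstimulated sum at 6 h was Lyz2, which fell from 15700 to 17400 CPM to 2670 to 4160 CPM. Csf1r, Ccr2, Cx3cr1, Itgam, Cd14, F13a1 and Cd68 fell too. Ly6c2 rose from 345 to 503 CPM to 2200 to 2510 CPM, and Fcgr1 from 28 to 35.9 CPM to 620 to 760 CPM. Of other cell types, neutrophil and granule progenitor markers (8 of 8) summed to 294 to 511 CPM in unstimulated libraries at 24 h and to at most 209 CPM elsewhere, B cell markers (4 of 6) to 378 to 551 CPM in stimulated libraries at 6 h and 40.7 to 265 CPM elsewhere, dendritic cell markers (4 of 4) to 19.3 to 176 CPM and erythroid markers (5 of 7) to at most 45.3 CPM. The B cell sum at 6 h rose mainly through Ighm, from 129 to 148 CPM without the stimulus to 310 to 370 CPM with it. Igkc overlapped between the groups. Cd79a fell from 0.809 to 1.22 CPM to 0.348 to 0.669 CPM, and Cd79b from 3.44 to 3.9 CPM to 0.442 to 0.914 CPM. T cell markers (2 of 6) summed to at most 6.81 CPM, with Cd3e not analysed here, and the only NK marker measured of 4, Klrk1, was at 391 to 434 CPM in stimulated libraries at 6 h and 8.7 to 126 CPM elsewhere. The part these differences play in the results was not tested, and in bulk RNA fewer cells of a type and less RNA per cell cannot be told apart. Nfam1 itself, counted over the whole gene, was at 432 and 408 CPM in unstimulated wild type libraries at 6 h, and the NFAM1-/- libraries held 299 and 321 CPM. In the stimulated libraries the genotypes overlapped, at 133 and 129 against 135 and 127 CPM, so this count does not check the labels there. The authors' scaling of the libraries matters for every fold change. Reads over the scaled size were 0.756 to 0.775 without and 1.24 to 1.32 with the stimulus at 6 h, and 0.776 to 0.788 and 0.970 to 0.997 at 24 h. On the deposited scale the median log2 fold change of all genes tested was -0.125 with the stimulus at 6 h and 0.007 at 24 h, and when every library was instead scaled by its own read total it was -0.856 and -0.326. On the deposited scale 17 of the 33 genes at 6 h and 23 at 24 h lay above the median of all genes. Scaling by read totals moves all genes alike and cannot change these counts. With quantile normalization, which can change them, they were 15 and 20.

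RefSeq promoter windows of 300 bases, most of each before the start of transcription (build GRCm38.p6), were listed for 32 of the 33 genes, all but Slc2a3. Those of 6 genes are shown, because they set the hexokinase and the regulator with the strongest rise at 6 h beside textbook hypoxia genes (Ldha, Pgk1, Bnip3) and Tpi1, an enzyme whose response turned between the times. Capitals mark ACGTG on either strand, which is 1 form of the core of the hypoxia response element (A or G, then CGTG). The form GCGTG was neither marked nor counted. ACGTG can overlap itself as CACGTG, which then counts once on each strand.
Hk3, chr13:55021336-55021635, minus strand: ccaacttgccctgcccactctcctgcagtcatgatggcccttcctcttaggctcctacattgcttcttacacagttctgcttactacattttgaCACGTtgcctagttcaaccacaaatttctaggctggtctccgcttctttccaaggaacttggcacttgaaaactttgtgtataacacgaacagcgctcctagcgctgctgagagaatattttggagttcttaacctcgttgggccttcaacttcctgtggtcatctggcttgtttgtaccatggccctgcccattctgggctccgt
Pfkfb3, chr2:11502041-11502340, minus strand: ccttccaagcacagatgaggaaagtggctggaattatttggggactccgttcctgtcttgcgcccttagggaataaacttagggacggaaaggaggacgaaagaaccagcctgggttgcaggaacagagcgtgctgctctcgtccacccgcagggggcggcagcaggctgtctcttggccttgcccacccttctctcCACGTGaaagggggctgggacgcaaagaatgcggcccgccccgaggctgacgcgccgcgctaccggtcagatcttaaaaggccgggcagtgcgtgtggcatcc
Ldha, chr7:46845554-46845853, plus strand: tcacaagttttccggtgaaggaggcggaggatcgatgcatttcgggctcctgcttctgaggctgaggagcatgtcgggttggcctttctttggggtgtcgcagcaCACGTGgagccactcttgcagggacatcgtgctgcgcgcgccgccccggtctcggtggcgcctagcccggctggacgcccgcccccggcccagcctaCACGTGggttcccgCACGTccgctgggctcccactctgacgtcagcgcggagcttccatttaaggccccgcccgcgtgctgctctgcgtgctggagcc
Pgk1, chrX:106186850-106187149, plus strand: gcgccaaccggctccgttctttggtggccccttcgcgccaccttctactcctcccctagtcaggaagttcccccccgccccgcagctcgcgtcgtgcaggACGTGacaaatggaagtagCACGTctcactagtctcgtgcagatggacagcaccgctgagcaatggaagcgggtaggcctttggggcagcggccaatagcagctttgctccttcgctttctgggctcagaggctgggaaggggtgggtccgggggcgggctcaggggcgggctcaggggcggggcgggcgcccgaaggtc
Bnip3, chr7:138909457-138909756, minus strand: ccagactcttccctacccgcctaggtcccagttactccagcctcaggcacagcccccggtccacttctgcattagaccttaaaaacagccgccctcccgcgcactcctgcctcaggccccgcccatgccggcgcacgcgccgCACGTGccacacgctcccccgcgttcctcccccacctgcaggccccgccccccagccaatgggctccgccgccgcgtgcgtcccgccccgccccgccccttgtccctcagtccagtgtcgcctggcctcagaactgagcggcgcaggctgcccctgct
Tpi1, chr6:124814109-124814408, minus strand: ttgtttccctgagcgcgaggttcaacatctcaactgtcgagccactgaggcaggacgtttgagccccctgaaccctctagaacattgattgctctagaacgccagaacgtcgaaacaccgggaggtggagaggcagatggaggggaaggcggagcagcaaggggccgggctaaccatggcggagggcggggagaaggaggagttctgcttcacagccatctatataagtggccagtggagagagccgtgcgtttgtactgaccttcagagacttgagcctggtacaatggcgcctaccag
Ldha held 5 matches over both strands, Pfkfb3, Pgk1 and Bnip3 held 2 each, Hk3 held 1 and Tpi1 none. Ldha and Pfkfb3 had 2 listed windows each, and the window with the most matches is shown. Hk3, Pgk1, Bnip3 and Tpi1 had 1 each, so these counts are not compared on equal terms. Of the 32 genes 20 had at least 1 match in a listed promoter (62.5%), against 2742 of the 9389 tested genes with a promoter (29.2%) and 19.6% of all 32851 windows. The letters TTCNNNGAA, read the same on both strands and known as the core of the IFN-γ-activated site, were in a window of 2 of the 32 genes, Aldoc and Pfkm (6.25%), against 8.28% of the tested genes and 8.3% of all windows. A match in these windows is a description of letters and not a bound site. The data hold no measurement of binding.

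The stimulus moved the pathway unevenly, and it did so differently at 6 h and at 24 h. At 6 h Hk3, Pfkfb3, Pfkp, Pdk3, Hk1, Slc2a6, Slc2a1 and Hif1a rose by at least 2-fold, and Egln3, Slc2a3, Pfkl, Bnip3, Aldoc, Ldhb, Slc16a3, Tpi1, Pfkfb4 and Gpi1 fell by as much, so that transporters, phosphofructokinases and the regulators Pfkfb3 and Pfkfb4 had members on both sides. A gene was called when its fold change was at least 2 and its Benjamini-Hochberg adjusted p from limma, over all genes tested, was under 0.05. With the stimulus at 6 h 8 of the 33 genes were called higher and 10 lower, against 19.0% and 20.5% of all genes tested. At 24 h 9 were called higher and 6 lower, against 14.6% and 18.7%. At the adjusted p alone the counts were 12 higher and 14 lower at 6 h (34.4% and 42.8% of all genes) and 18 higher and 8 lower at 24 h (37.7% and 36.1%). The median log2 fold change of the 33 genes was -0.044 at 6 h and 0.442 at 24 h. The change of the response between the times was tested as an interaction, and 9 genes were called higher at 24 h than at 6 h and 8 lower, against 13.3% and 18.1% of all genes. With own-total scaling, 6 of the 33 genes were called higher and 14 lower at 6 h, 8 and 6 at 24 h, and 12 and 7 in the interaction. The same rescaling moved the share of higher calls among all genes called from 48.1% to 21.9% at 6 h, from 43.9% to 30.4% at 24 h, and from 42.4% to 67.5% in the interaction. Together the 33 genes took 0.757 to 0.791% of the reads without and 0.807 to 0.833% with the stimulus at 6 h, and 0.692 to 0.733% and 0.825 to 1.177% at 24 h. The libraries of 6 h and 24 h were separate sets, so the time in culture and any other difference between the sets cannot be told apart.

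**Figure D1:**
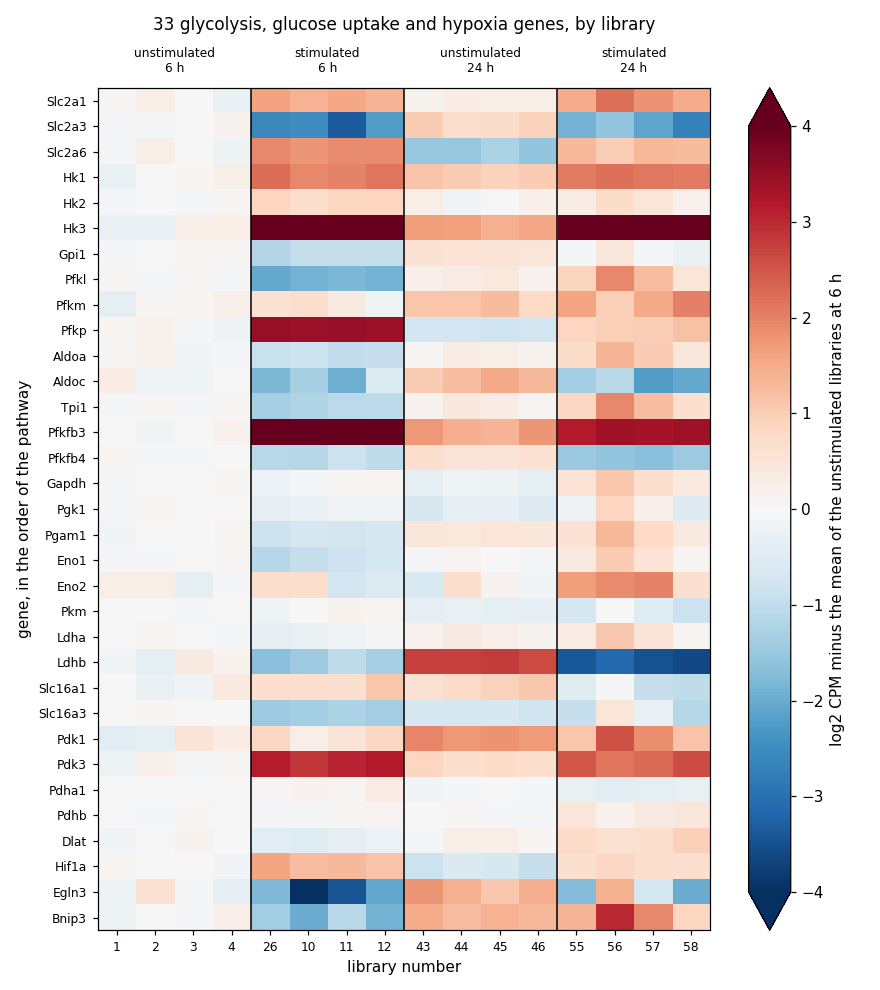
Each cell shows the log2 CPM of a gene (rows, in the order of the pathway) in a library (columns), minus the mean of the 4 unstimulated libraries at 6 h. The color scale ends at -4 and 4, and stronger values take the end color. Hk3, Pfkp, Pfkfb3 and Pdk3 are red in all stimulated libraries, Ldhb turns from red without the stimulus to blue with it at 24 h, and library 56 stands out within the stimulated libraries at 24 h for Pfkl, Tpi1 and Bnip3.

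**Figure D2:**
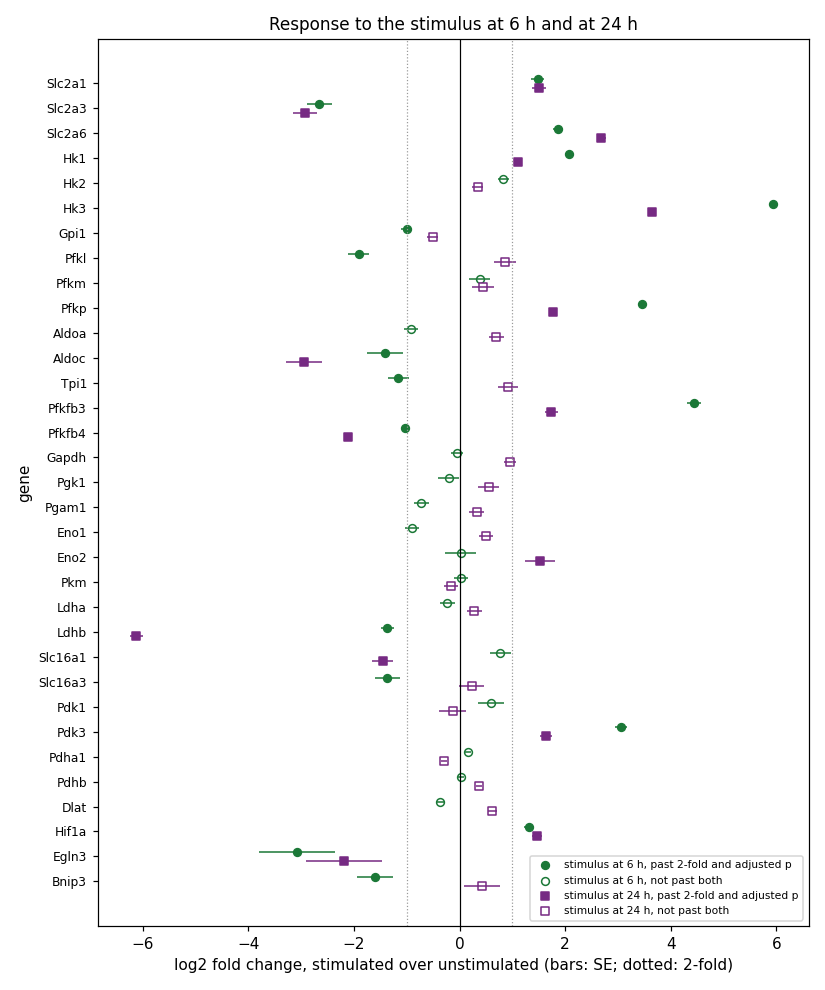
The log2 fold change of stimulated over unstimulated libraries is plotted for each gene at 6 h (circles) and 24 h (squares), with bars for the standard error of the fit and 4 libraries on each side. Filled marks are past a 2-fold change and the adjusted p, and dotted lines mark 2-fold. Hk3 is farthest to the right at 6 h (5.94) and Ldhb farthest to the left at 24 h (-6.12), and Pfkl and Tpi1 lie on opposite sides of 0 at the 2 times.

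Among the glucose transporters, Slc2a1 and Slc2a6 rose and Slc2a3 fell. Slc2a6, which encodes GLUT6, a transporter held largely inside the cell, was at 364, 441, 378 and 323 CPM in libraries 1 to 4 and at 1410, 1280, 1380 and 1400 CPM in libraries 26, 10, 11 and 12. At 24 h it was at 132, 131, 156 and 126 CPM without and at 926, 746, 930 and 908 CPM with the stimulus. Stimulated and unstimulated libraries did not overlap at either time, and the unstimulated level at 24 h was below that at 6 h. The log2 fold changes were 1.87 (SE 0.091, adjusted p = 4.14e-11) at 6 h and 2.69 (SE 0.091, adjusted p = 8.59e-13) at 24 h, a difference of 0.82 (SE 0.129, adjusted p = 5.15e-05). With quantile normalization the value at 6 h was 0.80, under 2-fold, and the difference of 1.47 (1.469) was past it. Slc2a3, which encodes the high-affinity transporter GLUT3, was at 9.72, 9.63, 9.94 and 11.2 CPM in the unstimulated and at 1.68, 1.82, 1.01 and 2.13 CPM in the stimulated libraries at 6 h. At 24 h the values were 20.3, 16.6, 16.8 and 19.3 CPM without and 2.75, 3.37, 2.32 and 1.54 CPM with the stimulus. It was lower in every stimulated library, by 2.66 on the log2 scale at 6 h (log2 fold change -2.66, SE 0.234, adjusted p = 5.09e-08) and by 2.93 at 24 h (-2.93, SE 0.234, adjusted p = 2.09e-08). Slc2a1, which encodes the widely expressed transporter GLUT1, rose by 1.48 (SE 0.130, adjusted p = 5.27e-08) and 1.51 (SE 0.130, adjusted p = 5.03e-08) on the log2 scale. With own-total scaling its rise at 6 h was 0.75, under 2-fold. Per kilobase of exon, Slc2a6 made up 87.9 to 88.7% of the summed level of the 3 transporters without and 91.1 to 92.3% with the stimulus at 6 h, while Slc2a3 went from 0.857 to 1.36% to 0.0296 to 0.0624%.

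All 3 hexokinases rose at 6 h, and the mixture of the enzymes changed from Hk2 to Hk3. Hk3 encodes a hexokinase found mainly in myeloid cells. Its level was 24.6, 24.5, 35.6 and 35.6 CPM in libraries 1 to 4 and 1930, 1700, 1800 and 1840 CPM in libraries 26, 10, 11 and 12. Unstimulated libraries at 24 h held 93.7, 92.3, 79.8 and 87.3 CPM and stimulated ones 1100, 1120, 1130 and 1080 CPM. The groups lay far apart at both times, with little spread within the stimulated libraries. The log2 fold change was 5.94 (SE 0.056, adjusted p = 1.97e-18), or 61.4-fold, at 6 h and 3.65 (SE 0.056, adjusted p = 2.19e-16), or 12.6-fold, at 24 h. None of the 12782 genes tested had a smaller adjusted p at 6 h. The response at 24 h was the smaller of the pair by 2.29 on the log2 scale (difference -2.29, SE 0.079, adjusted p = 3.16e-11), with a higher unstimulated and a lower stimulated level. Hk1, the hexokinase of most tissues, was at 34.9, 41.2, 44.1 and 48.9 CPM without and at 197, 158, 165 and 185 CPM with the stimulus at 6 h. The corresponding values at 24 h were 91.6, 85.3, 79.1 and 84.2 CPM and 176, 193, 183 and 178 CPM. Its stimulated level was alike at both times and its unstimulated level higher at 24 h. Its log2 fold change was the smaller at 24 h (1.10, SE 0.077, adjusted p = 4.37e-09, against 2.07, SE 0.077, adjusted p = 1.74e-12), and the difference of -0.96 passed 2-fold without any 1 of libraries 2, 4, 10 and 11. With own-total scaling the Hk1 response at 24 h was 0.77, under 2-fold. Hk2, the inducible hexokinase of muscle and a known HIF target, rose by less than 2-fold, with log2 fold changes of 0.83 (SE 0.109, adjusted p = 4.68e-06) and 0.34 (SE 0.109, adjusted p = 0.0103). Own-total scaling left it at 0.10 (adjusted p = 0.376) at 6 h and 0.01 (adjusted p = 0.933) at 24 h. Shares within a library do not depend on this scaling. Per kilobase, Hk3 made up 25.0 to 32.8% of the summed hexokinase level without and 91.0 to 91.4% with the stimulus at 6 h, and Hk2 49.7 to 57.8% and 4.84 to 5.16%. At 24 h the share of Hk3 was 46.3 to 51.5% without and 86.4 to 88.5% with the stimulus.

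**Figure D3:**
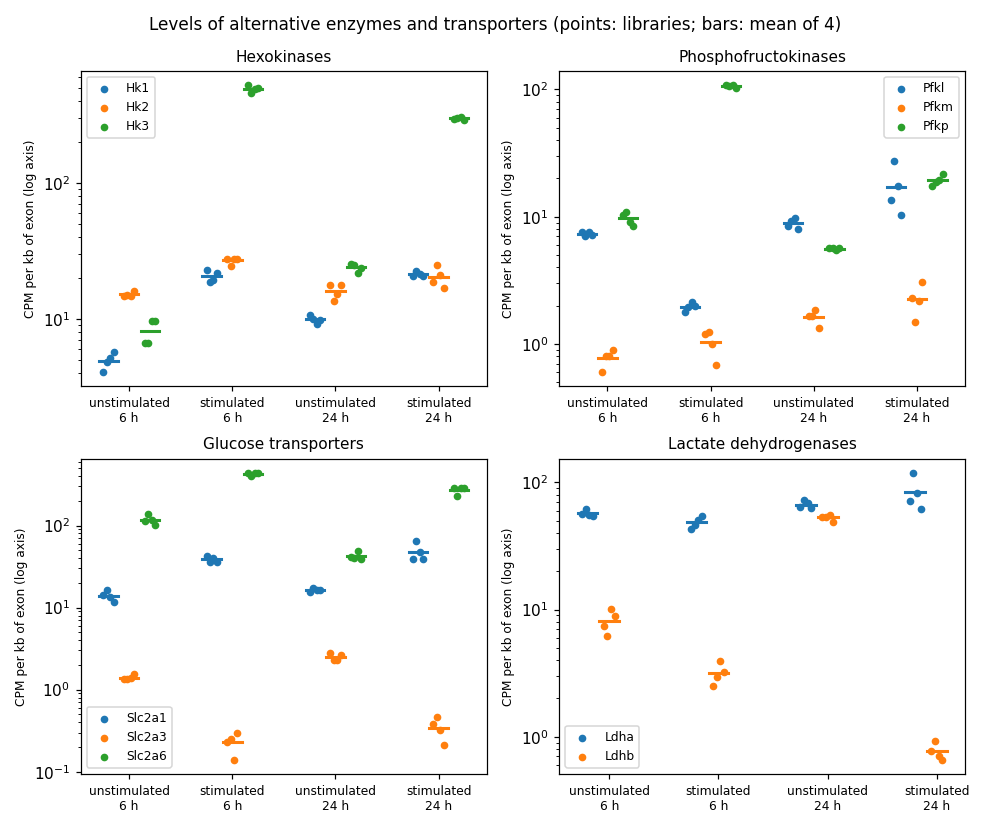
Levels are plotted in CPM per kilobase of exon on log axes for the hexokinases, phosphofructokinases, glucose transporters and lactate dehydrogenases in the 4 sets of libraries. Points are single libraries and bars the mean of 4. Hk3 and Pfkp lie above their relatives after 6 h with the stimulus. On this scale Pfkl and Pfkp overlap in the stimulated libraries at 24 h, where Pfkp is divided by the longer merged exons. Ldhb drops to about 1 CPM per kilobase or below in the stimulated libraries at 24 h.

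In upper glycolysis the phosphofructokinase isozymes moved in opposite directions at 6 h. Pfkp, the platelet-type isozyme, was at 138, 147, 122 and 113 CPM in the unstimulated libraries and at 1440, 1430, 1450 and 1380 CPM in the stimulated ones. At 24 h it was at 75.4, 75.6, 73.9 and 75.8 CPM and at 233, 251, 258 and 290 CPM. The stimulated libraries of 6 h stood about an order of magnitude above their controls, and those of 24 h were higher than their controls by a smaller step. Log2 fold changes were 3.46 (SE 0.059, adjusted p = 2.14e-16) and 1.78 (SE 0.059, adjusted p = 6.47e-13), with a difference of -1.68 (SE 0.083, adjusted p = 5.45e-10). Pfkl, the liver-type isozyme, was named after its values were seen. It was at 50.7, 47.3, 50.4 and 48 CPM without and at 11.8, 13.1, 14.2 and 13.3 CPM with the stimulus at 6 h, and at 56.9, 61.8, 65.2 and 53.7 CPM and 91.1, 184, 115 and 69.1 CPM at 24 h. All 4 stimulated libraries were below their controls at 6 h and above them at 24 h. It fell by 1.91 on the log2 scale at 6 h (log2 fold change -1.91, SE 0.202, adjusted p = 4.26e-07) and rose by 0.86 at 24 h (SE 0.202, adjusted p = 0.0013), under 2-fold. The difference of 2.77 (SE 0.286, adjusted p = 7.68e-07) was 2.51 without library 56. Pfkm, the muscle isozyme, was at 0.38 (SE 0.203, adjusted p = 0.0997) at 6 h and 0.44 (SE 0.203, adjusted p = 0.0614) at 24 h, and its sign at 6 h turned to -0.35 with own-total scaling. Per kilobase, Pfkp made up 51.2 to 58.1% of the 3 isozymes without and 97.1 to 97.5% with the stimulus at 6 h, and Pfkl went from 37.6 to 43.4% to 1.6 to 1.91%. At 24 h the share of Pfkp in stimulated libraries was 39.2 to 61.7%, against 32.2 to 37.6% in unstimulated ones. These shares depend on the merged exon lengths, which were 13401 bases for Pfkp, 6675 for Pfkl and 3340 for Pfkm. In CPM, without a length, Pfkp was above Pfkl in every stimulated library at 24 h.

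The aldolases, triosephosphate isomerase and glucose 6-phosphate isomerase make up the rest of the upper pathway. Aldoc, the brain-type aldolase and a minor form here, was at 1.46, 1.03, 1.03 and 1.19 CPM without and at 0.337, 0.462, 0.299 and 0.796 CPM with the stimulus at 6 h. At 24 h the values were 2.34, 2.73, 3.3 and 2.86 CPM and 0.459, 0.537, 0.247 and 0.283 CPM. It was lower in all stimulated libraries at both times, where as few as 16 reads lay behind a value. Its log2 fold changes were -1.41 (SE 0.342, adjusted p = 0.00152) and -2.95 (SE 0.342, adjusted p = 1.46e-06). On the scale of log2 of CPM plus 1 the value at 6 h was -0.57 and the difference between the times -0.89, both under 2-fold, and with quantile normalization the difference was -1.085 (adjusted p = 0.0658). Aldoa, which carries nearly all aldolase level per kilobase (at least 99.6%), fell by 0.92 at 6 h (log2 fold change -0.92, SE 0.135, adjusted p = 1.45e-05) and rose by 0.70 at 24 h (SE 0.135, adjusted p = 0.000247), both under 2-fold. The difference of 1.62 (SE 0.190, adjusted p = 2.84e-06) was called. With quantile normalization the fall of Aldoa at 6 h was past 2-fold (-1.866), and its value at 24 h was 0.098. Own-total scaling also took the fall at 6 h past 2-fold. Tpi1, triosephosphate isomerase, fell by 1.16 at 6 h (log2 fold change -1.16, SE 0.194, adjusted p = 5.78e-05) and rose by 0.92 at 24 h (SE 0.194, adjusted p = 0.000556), with a difference of 2.08 (SE 0.274, adjusted p = 9.22e-06). Its stimulated libraries at 24 h were at 197, 421, 257 and 173 CPM against 119 to 150 CPM without the stimulus, so library 56 was the highest by a wide margin and all 4 were above their controls. The rise passed 2-fold without library 55 or 58, and that of Pfkl without 58. Gpi1, glucose 6-phosphate isomerase, fell at both times, by about 2-fold at 6 h (log2 fold change -1.004, SE 0.110, adjusted p = 6.08e-07) and less at 24 h (-0.51, SE 0.110, adjusted p = 0.000628). Its call at 6 h sits at the 2-fold limit and was lost without library 2, 4 or 26. With centring on medians the falls at 6 h of Gpi1 (-0.836) and Tpi1 (-0.992) were both under 2-fold.

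Of the enzymes that make and remove fructose 2,6-bisphosphate, the activator of phosphofructokinase, one rose and the other fell at both times. Pfkfb3, whose product mainly makes the activator, was at 22.9, 19.8, 22 and 25.3 CPM in the unstimulated and at 699, 437, 416 and 448 CPM in the stimulated libraries at 6 h. At 24 h it was at 75.2, 61.6, 57.3 and 76.2 CPM and at 203, 235, 223 and 235 CPM. No stimulated library overlapped an unstimulated one, and library 26 was the highest. Its log2 fold change was 4.44 (SE 0.127, adjusted p = 6.94e-14) at 6 h and 1.74 (SE 0.127, adjusted p = 7.41e-09) at 24 h, a difference of -2.71 (SE 0.180, adjusted p = 8.82e-09). Pfkfb4 was at 98.8, 87.4, 87 and 91.8 CPM without and at 41.8, 41.7, 50.5 and 45.1 CPM with the stimulus at 6 h. At 24 h these were 146, 130, 129 and 135 CPM and 32.8, 30.7, 28.3 and 33.6 CPM. It was lower in every stimulated library, with log2 fold changes of -1.03 (SE 0.067, adjusted p = 1.34e-09) and -2.11 (SE 0.067, adjusted p = 4e-13). Without library 1 or 12 the fall at 6 h was less than 2-fold, as it was with centring on medians (-0.861). Per kilobase the share of Pfkfb3 in the pair went from 12.8 to 15.1% to 84.2 to 91.5% at 6 h and from 22.3 to 26.7% to 79.9 to 83.5% at 24 h.

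On the deposited scale the enzymes of lower glycolysis, which recover the ATP, changed by less than 2-fold at 6 h. At 24 h Eno2 was the only one of 6 to be called, higher. At the adjusted p alone 2 fell at 6 h (Eno1 and Pgam1) and 4 rose at 24 h (Gapdh, Pgk1, Eno1 and Eno2). With quantile normalization the falls of Eno1 (-1.884), Pkm (-1.243) and Gapdh (-1.04) at 6 h were past 2-fold. Own-total scaling took those of Eno1 and Pgam1 past it. Gapdh, glyceraldehyde 3-phosphate dehydrogenase, was at 510, 529, 537 and 550 CPM without and at 453, 508, 547 and 560 CPM with the stimulus at 6 h, and at 404, 473, 460 and 416 CPM and 770, 1150, 839 and 703 CPM at 24 h. The groups overlapped at 6 h and stood apart at 24 h. The log2 fold change was -0.04 (SE 0.114, adjusted p = 0.733) at 6 h, where centring on medians turned it to 0.13 (0.125) and own-total scaling gave -0.77, and 0.96 (SE 0.114, adjusted p = 1.87e-06) at 24 h. The difference of 1.00 (SE 0.161, adjusted p = 6.19e-05) lay at the 2-fold limit and passed below it without any 1 of libraries 2, 4, 26, 11, 43, 46 and 56, the lowest value being 0.86 without 56. The rise at 24 h passed 2-fold without library 55 or 58. Eno1, the common enolase, was at 618, 620, 635 and 675 CPM without and at 286, 331, 359 and 394 CPM with the stimulus at 6 h. At 24 h it was at 618, 688, 645 and 618 CPM and at 827, 1290, 939 and 690 CPM. Every stimulated library was below the controls at 6 h and above them at 24 h, by little in library 58. Its log2 fold changes were -0.90 (SE 0.134, adjusted p = 1.75e-05) and 0.51 (SE 0.134, adjusted p = 0.00324), and the difference was 1.41 (SE 0.190, adjusted p = 1.12e-05). Quantile normalization turned the value at 24 h to -0.08. Eno2, the neuronal enolase, was at 2.43, 2.38, 1.55 and 1.95 CPM and at 3.32, 3.31, 1.21 and 1.41 CPM at 6 h, and at 1.34, 3.26, 2.26 and 1.91 CPM and 6.49, 7.53, 8.13 and 3.22 CPM at 24 h. At 6 h the wild type stimulated libraries were above and the NFAM1-/- ones below all controls, and at 24 h library 58 overlapped the controls. The log2 fold change at 24 h was 1.52 (SE 0.292, adjusted p = 0.000235), and at 6 h it was 0.02 (SE 0.292, adjusted p = 0.951), or -0.71 with own-total scaling. Pgam1, phosphoglycerate mutase, fell by 0.72 at 6 h (log2 fold change -0.72, SE 0.142, adjusted p = 0.000256) and was at 0.32 (SE 0.142, adjusted p = 0.0518) at 24 h. Its difference of 1.05 (1.045, SE 0.200, adjusted p = 0.00031) was 0.86 without library 56. Pgk1, phosphoglycerate kinase, was at -0.21 (SE 0.199, adjusted p = 0.354) at 6 h and rose by 0.56 at 24 h (SE 0.199, adjusted p = 0.0203), and Pkm, pyruvate kinase of muscle and leukocytes, was at 0.03 (SE 0.132, adjusted p = 0.867) and -0.16 (SE 0.132, adjusted p = 0.291). The Pkm value at 6 h was -0.71 (-0.705) with own-total scaling and -1.243 with quantile normalization. Aldoa, Gapdh, Pgk1, Tpi1, Pgam1, Ldha and Eno1 have processed pseudogenes or near-identical copies, and how the authors' counting split shared reads is not given in the sources used here.

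Lactate dehydrogenase B showed the largest fall among the 33 genes with the stimulus at 24 h, though not at 6 h. Ldhb, the heart-type subunit that favors turning lactate into pyruvate, was at 11.6, 9.71, 16.1 and 14 CPM without and at 3.94, 4.61, 6.19 and 5.08 CPM with the stimulus at 6 h. At 24 h the unstimulated libraries held 83.8, 84.5, 87.7 and 76.9 CPM and the stimulated ones 1.21, 1.46, 1.12 and 1.04 CPM. The unstimulated level was several-fold higher at 24 h than at 6 h, whereas the stimulated level was lower, and no library overlapped the other group. The log2 fold changes were -1.37 (SE 0.121, adjusted p = 5.1e-08) and -6.12 (SE 0.121, adjusted p = 3.14e-15), a difference of -4.75 (SE 0.171, adjusted p = 4.12e-11). At least 74 reads lay behind each stimulated value at 24 h. Ldha, the muscle-type subunit that favors lactate, was at 188, 203, 185 and 180 CPM and at 143, 154, 167 and 182 CPM at 6 h, and at 211, 242, 226 and 208 CPM and 237, 395, 272 and 205 CPM at 24 h. The groups overlapped at both times. Its log2 fold change was -0.23 (SE 0.141, adjusted p = 0.151) at 6 h and 0.28 (SE 0.141, adjusted p = 0.0874) at 24 h, which became -0.05 with own-total scaling and -0.10 (-0.099) with quantile normalization. Per kilobase, Ldhb made up 42.4 to 45.5% of both subunits in unstimulated libraries at 24 h and 0.771 to 1.07% in stimulated ones, and 9.15 to 15.5% and 5.48 to 7.23% at 6 h. Slc16a1, which encodes the monocarboxylate transporter MCT1, was at 3.99, 3.34, 3.59 and 5.25 CPM and at 6.35, 6.42, 6.22 and 8.54 CPM at 6 h, and at 6.09, 6.75, 7.59 and 8.32 CPM and 2.84, 3.83, 2.11 and 1.99 CPM at 24 h. It was higher in all stimulated libraries at 6 h and lower in all of them at 24 h, with log2 fold changes of 0.78 (SE 0.206, adjusted p = 0.00295) and -1.46 (SE 0.206, adjusted p = 1.19e-05) and a difference of -2.24 (-2.235, SE 0.291, adjusted p = 8.01e-06). Own-total scaling brought the value at 6 h to 0.05 (0.046, adjusted p = 0.839). Slc16a3, which encodes the lactate exporter MCT4, went the other way, with a fall of 1.37 at 6 h (log2 fold change -1.37, SE 0.236, adjusted p = 7.69e-05) and 0.23 (SE 0.236, adjusted p = 0.395) at 24 h. The latter was -0.11 (-0.105) with own-total scaling and -0.09 (-0.086) without library 56.

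At the branch to the mitochondria, Pdk3 rose and the subunits of pyruvate dehydrogenase changed by less than 2-fold. Pdk3, a kinase that switches pyruvate dehydrogenase off, was at 9.53, 12.7, 10.5 and 11.2 CPM without and at 97, 78.4, 90.4 and 98.3 CPM with the stimulus at 6 h, and at 19.9, 17.5, 18.1 and 17.5 CPM and 60.7, 47.9, 52.4 and 67.1 CPM at 24 h. Stimulated libraries were the higher ones throughout. Its log2 fold changes were 3.06 (3.055, SE 0.112, adjusted p = 1.34e-12) and 1.63 (SE 0.112, adjusted p = 3.4e-09), a difference of -1.42 (SE 0.158, adjusted p = 1.68e-06). Pdk1, a related kinase and a known HIF target, was at 0.60 (SE 0.250, adjusted p = 0.0395) at 6 h, which own-total scaling turned to -0.13, and at -0.13 (SE 0.250, adjusted p = 0.648) at 24 h. Per kilobase, Pdk3 made up 85.1 to 92.6% of the pair without and 97.7 to 98.1% with the stimulus at 6 h. Among the subunits of the complex, Pdha1 was at 0.16 at 6 h and -0.29 at 24 h, Pdhb at 0.02 and 0.37, and Dlat at -0.37 and 0.62 on the log2 scale. With own-total scaling the values at 6 h of Pdha1 and Pdhb were -0.57 and -0.71, and that of Dlat was -1.10.

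Hif1a rose with the stimulus at both times, and the hypoxia genes Egln3 and Bnip3, at 3.89 CPM or less, fell at 6 h. They do not stand for all HIF targets. On the deposited scale Hk2 and Pdk1, named above as HIF targets, rose by less than 2-fold at 6 h. Ldha and Pgk1 did not pass the adjusted p there. Hif1a was at 433, 391, 400 and 373 CPM without and at 1190, 935, 987 and 886 CPM with the stimulus at 6 h, and at 220, 265, 255 and 210 CPM and 625, 702, 649 and 637 CPM at 24 h. Stimulated libraries were above unstimulated ones at both times. The log2 fold changes of 1.32 (SE 0.088, adjusted p = 1.87e-09) and 1.47 (1.465, SE 0.088, adjusted p = 6.98e-10) differed by 0.15 (SE 0.124, adjusted p = 0.309). At 6 h own-total scaling gave 0.59 (adjusted p = 3.99e-06), and quantile normalization gave 0.31 (adjusted p = 0.00163) at 6 h and 0.98 (adjusted p = 1.53e-08) at 24 h, all under 2-fold. Egln3, the prolyl hydroxylase PHD3, was at 1.32, 2.32, 1.48 and 1.19 CPM and at 0.446, 0.0471, 0.138 and 0.364 CPM at 6 h, and at 5.15, 4.04, 3.24 and 4.21 CPM and 0.459, 4.08, 0.937 and 0.383 CPM at 24 h. It was lower in all stimulated libraries at 6 h, where 1 library held 2 reads, and library 56 reached the unstimulated range at 24 h. Its log2 fold changes were -3.08 (SE 0.718, adjusted p = 0.00112) and -2.18 (SE 0.718, adjusted p = 0.0128), and at so few reads their size depends on the 0.5 reads that the authors' unit adds. With quantile normalization the value at 24 h was -1.86 (-1.864, adjusted p = 0.0694). Bnip3, a mitophagy receptor, was at 2.83, 3.2, 3.17 and 3.89 CPM and at 1.23, 0.82, 1.5 and 0.875 CPM at 6 h, and at 9.14, 7.68, 8.53 and 7.97 CPM and 8.42, 26.2, 12.2 and 5.88 CPM at 24 h. The groups stood apart at 6 h and overlapped at 24 h. It fell by 1.60 at 6 h (log2 fold change -1.60, SE 0.341, adjusted p = 0.000534), a call lost with voom weights (-1.571, adjusted p = 0.0737), and was at 0.43 (SE 0.341, adjusted p = 0.264) at 24 h, or 0.03 (0.026) without library 56. The difference of 2.03 (SE 0.482, adjusted p = 0.00176) was 1.63 without that library.

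Between the times the unstimulated cells changed too. In unstimulated libraries 8 of the 33 genes were called higher at 24 h than at 6 h and 1 lower, against 13.3% and 7.71% of all genes tested. The higher genes were Ldhb (log2 difference 2.72), Pdk1 (1.80), Pfkfb3 (1.58), Hk3 (1.58), Bnip3 (1.35), Aldoc (1.26), Pfkm (1.07) and Hk1 (1.02), and the lower one was Slc2a6 (-1.46). Hk1 and Pfkm lie close to 2-fold, and lost the call without library 1, 3 or 43 and without library 1 or 45. Egln3 (log2 difference 1.43) was called without library 56. Among stimulated libraries 12 were called higher at 24 h and 4 lower, against 16.5% and 17.1%. Bnip3 (3.39), Pfkl (3.04), Egln3 (2.33), Tpi1 (2.32) and Aldoa (1.81) led the higher genes, which also held Eno2, Pgam1, Eno1, Pfkm, Dlat, Pdk1 and Gpi1, and the lower ones were Pfkp (-2.47), Ldhb (-2.03), Slc16a1 (-1.39) and Pfkfb3 (-1.13). Calls were lost for Gpi1 without library 26 or 56, for Pfkm without 12 or 58, for Pdk1 without 10, 11, 56 or 57, for Pfkfb3 without 26 and for Egln3 without 10 (adjusted p = 0.0546), and Slc16a3 was called without 55 or 58. With centring on medians the stimulated comparison had 8 higher and 4 lower, as Gpi1 (0.855), Pfkm (0.951), Pdk1 (0.891) and Dlat (0.942) lost the call. With own-total scaling it had 15 higher and 3 lower, and the share of higher calls among all genes called went from 49.1% to 69.4%.

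The 4 stimulated libraries at 24 h spread more widely over these genes than those of any other set. The median of the 33 genes against the mean of the 4 libraries was -0.12 in library 55, 0.43 in library 56, 0.02 in library 57 and -0.29 in library 58 on the log2 scale, whereas in the other 3 sets it lay between -0.06 and 0.06. Library 56 was the highest of the 4 for 22 of the 33 genes, against 28.1% of all genes tested, and library 58 the lowest for 19, against 33%. For 14 genes the order was 56, 57, 55 and 58 from high to low, which were Hk2, Gpi1, Pfkl, Aldoa, Tpi1, Gapdh, Pgk1, Pgam1, Eno1, Pkm, Ldha, Slc16a3, Egln3 and Bnip3, against 11.5% of all genes. Hk3, Hk1 and Hif1a varied little in the same libraries, with 1100, 1120, 1130 and 1080 CPM for Hk3. Slc2a6, Pfkm, Pdk3, Pdha1, Pdhb and Dlat were the 6 genes for which library 56 was the lowest. Without library 56 the counts at 24 h stayed at 9 higher and 6 lower, the interaction had 8 higher and 9 lower, and the comparison of stimulated libraries between the times had 10 higher. Gapdh and Pgam1 then lost the call of the interaction, Pdk1 (-1.02) and Dlat (1.03) gained it, as Dlat also did without library 1, 4, 12, 44, 45 or 57, and the rises at 24 h were 0.60 for Pfkl, 0.66 for Tpi1, 0.54 for Aldoa, 0.81 for Gapdh, 0.34 for Eno1 and 0.30 for Pgk1 on the log2 scale, each with an adjusted p under 0.05. With own-total scaling and all libraries the same rises were 0.53 (adjusted p = 0.0243), 0.58 (adjusted p = 0.0111), 0.37 (adjusted p = 0.0177), 0.63 (0.625, adjusted p = 0.000105), 0.17 (adjusted p = 0.243) and 0.22 (adjusted p = 0.307). Library 56 is titled wild type and tagged NFAM1-/-, and library 58 is titled NFAM1-/- and tagged wild type.

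**Figure D4:**
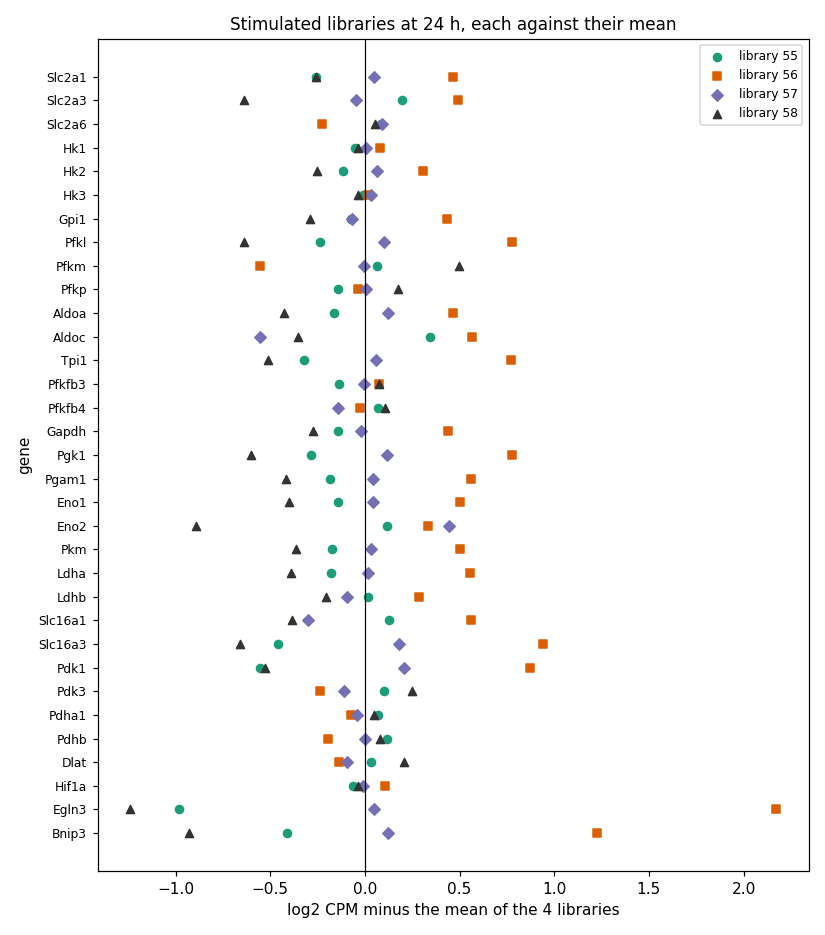
For each gene the log2 CPM of the 4 stimulated libraries at 24 h is plotted minus their mean. Library 56 (squares) lies to the right for most genes of glycolysis and hypoxia and library 58 (triangles) to the left, with library 56 at 421 CPM and library 58 at 173 CPM for Tpi1, while Hk3, Hk1 and Hif1a lie close to 0 in all 4.

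The loss of NFAM1 was compared at 6 h, with 2 libraries a group, so that p-values rest on a spread shared with the other groups. In unstimulated cells 6 of 12782 genes were called (0.0469%), in stimulated cells 0 (0.0%) and in the interaction of genotype and stimulus 0 (0.0%), and none of the 33 genes was among them. At an unadjusted p under 0.05 there were 968, 1526 and 882 genes, with 5, 2 and 2 of the 33. Hk3 was at 24.6 and 24.5 CPM in the unstimulated wild type libraries and at 35.6 and 35.6 CPM in the NFAM1-/- ones, and at 1930 and 1700 against 1800 and 1840 CPM with the stimulus. The libraries labelled NFAM1-/- were higher without the stimulus, by a log2 difference of 0.54 (SE 0.079, adjusted p = 0.0192), or 1.45-fold, and the genotypes overlapped with it (0.01, SE 0.079, adjusted p = 0.979). This was the only one of the 33 to pass the adjusted p, where 5 of 12782 genes were higher (0.0391%). Its adjusted p was 0.0813 with voom weights and 0.0521, 0.0976 and 0.175 without libraries 2, 3 and 4. The interaction of -0.53 (SE 0.112) had an adjusted p of 0.415. Without the stimulus Hk1 was at 0.29 (SE 0.109, adjusted p = 0.547), Pfkp at -0.27 (SE 0.083, adjusted p = 0.399), Ldhb at 0.50 (SE 0.171, adjusted p = 0.472) and Pdk1 at 0.79 (SE 0.353, adjusted p = 0.638). With the stimulus Eno2 was at -1.35 (SE 0.412, adjusted p = 0.262), from 3.32 and 3.31 CPM in wild type to 1.21 and 1.41 CPM in NFAM1-/-, and Ldhb was at 0.40 (0.395, SE 0.171, adjusted p = 0.38). Pfkp had an interaction of 0.26 (SE 0.117, adjusted p = 0.723). Over the 33 genes the median was 0.006 without and 0.116 with the stimulus, beside 0.005 and 0.013 over all genes tested.

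**Figure D5:**
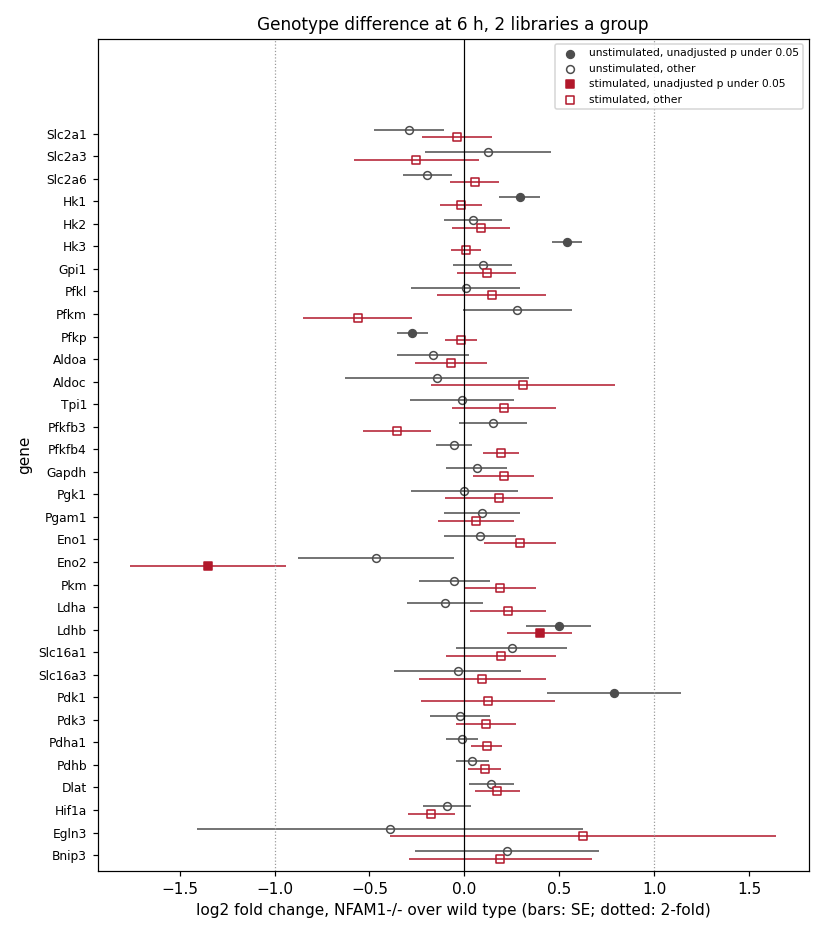
The log2 fold change of NFAM1-/- over wild type at 6 h is plotted for each gene without (circles) and with the stimulus (squares), with bars for the standard error of the fit and 2 libraries a group. Filled marks have an unadjusted p under 0.05, and dotted lines mark 2-fold. All marks but that of Eno2 with the stimulus (-1.35) lie within 2-fold.

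At 24 h the genotype depends on which label is read. The title and the tag name the same genotype in libraries 43 (NFAM1-/-) and 45 (wild type) without and in 55 (NFAM1-/-) and 57 (wild type) with the stimulus. Between these single libraries 0 of the 33 genes differed by 2-fold without the stimulus, against 4.51% of all genes, and 1 with it, Egln3 at 0.459 against 0.937 CPM, against 4.27%. The median log2 difference of the 33 genes, NFAM1-/- minus wild type, was -0.062 without and -0.135 with the stimulus. Over all genes tested it was 0.005 and 0.006. There is no replicate behind these values. When all 4 stimulated libraries were grouped by the title, 10 of the 33 genes passed the adjusted p, against 2.1% of all genes, and 25 of the 33 were lower in NFAM1-/-, with a median log2 difference of -0.376. The 10 were Slc16a3 (-1.12), Pdk1 (-1.08), Pgk1 (-0.89), Pfkl (-0.88), Tpi1 (-0.83), Pgam1 (-0.60), Aldoa (-0.59), Ldha (-0.57), Eno1 (-0.54) and Pkm (-0.53), of which the first 2 were past 2-fold. When they were grouped by the tag, 0 passed, against 0.0235% of all genes, 8 of the 33 were lower and the median was 0.306. The direction of the genotype difference over all 4 stimulated libraries at 24 h therefore turns with the label. Nfam1 was at 441, 463, 495 and 391 CPM in libraries 43 to 46 and at 201, 271, 252 and 223 CPM in libraries 55 to 58. In both sets the libraries titled wild type were above those titled NFAM1-/-, as in unstimulated libraries at 6 h, and by the tag the genotypes overlapped. The same grouping of unstimulated libraries left 0 of the 33 genes past the adjusted p by either label. Of the 12782 genes tested, 122 passed there by the title and 2 by the tag.

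Genes of neighboring pathways were read from lists, which were put together with earlier results of these data known. Of 10 measured pentose phosphate genes, the branch that makes NADPH and ribose, 0 were called higher and 3 lower at 6 h, where 19.0% and 20.5% of all genes were, the median being -0.547 on the log2 scale, and 0 and 2 at 24 h (median -0.634), where 14.6% and 18.7% of all genes were. Prps2, a phosphoribosyl pyrophosphate synthetase, had the largest fall, from 10.4 to 14.4 CPM to 2.72 to 2.87 CPM (log2 fold change -2.06, SE 0.127, adjusted p = 7.64e-10). Of 22 genes of the tricarboxylic acid cycle 1 was called higher and 4 lower at 6 h (median -0.276) and 1 and 3 at 24 h (median 0.285). At the adjusted p alone 5 were higher and 13 lower at 6 h, where 34.4% and 42.8% of all genes were. At 24 h 12 and 8 were, against 37.7% and 36.1%. Acod1, which makes itaconate from cis-aconitate, rose from 122 to 225 CPM to 5340 to 7850 CPM (log2 fold change 5.06, SE 0.300, adjusted p = 4.43e-10), and Idh1, cytosolic isocitrate dehydrogenase, fell from 137 to 178 CPM to 11 to 14.7 CPM (-3.60, SE 0.091, adjusted p = 1.6e-14). Among 26 other genes of glycolysis, glycogen and pyruvate 2 were called higher and 8 lower at 6 h (median -0.600), and 0 and 11 at 24 h (median -0.756). Pdp1, the phosphatase that reactivates pyruvate dehydrogenase, rose by 2.41 (SE 0.091, adjusted p = 2.01e-12), and Pdk2, a further kinase of the complex, was lower in all stimulated libraries, at 0.138 to 0.364 CPM against 1.64 to 4.45 CPM (-3.68, SE 0.313, adjusted p = 3.33e-08). Of the 29 measured genes of hypoxia sensing and HIF targets, on the deposited scale, 3 were called higher and 9 lower at 6 h (median -0.283), as were 8 and 5 at 24 h (median 0.561), and 13 higher and 4 lower in the difference between them (median 0.999), where 13.3% and 18.1% of all genes were called. Own-total scaling took the median of all genes in this difference from 0.043 to 0.44. In libraries 55 to 58 Mif was at 29.8, 73.7, 36.6 and 20 CPM and Ndrg1 at 36, 85.4, 58.5 and 31.9 CPM. Library 56 was thus the highest for these genes, though not for Car9 or Cited2. The counts of this list are not given without library 56 or with own-total scaling. Stc2, which encodes the secreted protein stanniocalcin 2, was at most 0.0743 CPM without and at 0.349 to 0.483 CPM with the stimulus at 6 h. In stimulated libraries at 24 h it was at 2.03 to 2.95 CPM. It reached 1 CPM only in that last set and so passed the filter through it alone. The same holds for Ak4, Ankrd37 and Adm, which had the largest rise of this list in the difference. These genes thus entered the list through the set where they are high, and their rises are no separate support for it. Car9, carbonic anhydrase IX and a classical HIF target, was at 1.71 to 2.14 CPM without and 0.202 to 0.519 CPM with the stimulus at 6 h (log2 fold change -2.37, SE 0.262, adjusted p = 6.9e-07), and at 3.89 to 5.75 CPM and 1.62 to 3.59 CPM at 24 h (-1.13, SE 0.262, adjusted p = 0.00121).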

How the data were processed

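RNA was sequenced from 16 mouse monocyte libraries (non-stranded polyA TruSeq, HiSeq2000). The authors deposited log2 CPM for 13085 genes, made with STAR, Rsubread and edgeR per their methods, and per the labels with the builds GRCm39 and mm39. Tool versions and the annotation are not given in the sources used here. The deposited log2 values have the form of voom's output (reads with 0.5 added, per scaled library size), so that reads could be recovered from them. Of values below 200 reads 100% came out whole within 0.05. Of the symbols, 17 appear as dates and 1 is on more than a single row, none of them among the 33 genes.

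Groups followed the titles at 6 h and the stimulus at 24 h. All 16 libraries were fitted in 1 limma model (3.58.1, R 4.3.3; 6 groups, 10 residual degrees of freedom, prior variance following mean expression) with contrasts for stimulus, time, genotype and their interactions. The filter (1 CPM or more in 2 or more libraries) left out 303 genes. The paper's figure legend counts fewer mice than the 16 libraries, so cells of a mouse may have been split between libraries. Which library came from which mouse is not stated, so a pairing by mouse was not modelled. The p-values measure the spread between these libraries. With at least 48295939 reads a library, the number of libraries limits the precision of all but the lowest genes. Levels between genes were compared per kilobase of merged exons of GENCODE vM21 (GRCm38), which is not the authors' build, and promoters came from RefSeq (GRCm38.p6). Merged exons take in all annotated transcripts of a gene, and which of them the cells made was not tested. Values in every library were given for up to 2 called genes of each role with the largest change, plus Gapdh, Ldha and Hif1a; for the genotype, genes with an unadjusted p under 0.05 were named; of each neighboring list, the largest called rise and fall at 6 h. The members, lists and rules were chosen with earlier results of these data known. The fit was tested on simulated data. Alternatives changed the filter, scaling, pseudocount, prior variance, weights (statmod 1.5.0 for the robust prior), groups and threshold, and left out each library in turn.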

Additional observations from a re-analysis of the deposited data

Results flagged for a closer look

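In 17 of the 33 genes the response to the stimulus differed between 24 h and 6 h by at least 2-fold and with an adjusted p under 0.05 in limma's test of the difference itself, 9 higher and 8 lower at 24 h, against 13.3% and 18.1% of all genes tested. At the adjusted p alone 15 were higher and 11 lower, against 34.5% and 31.1% of all genes tested. On the log2 scale the response at 24 h was higher by 2.77 for Pfkl, 2.08 for Tpi1, 2.03 for Bnip3, 1.62 for Aldoa, 1.60 for Slc16a3, 1.502 for Eno2, 1.41 for Eno1, 1.045 for Pgam1 and 1.00 (1.001) for Gapdh. For 8 genes it was lower, with differences of -4.75 for Ldhb, -2.71 for Pfkfb3, -2.29 for Hk3, -2.24 (-2.235) for Slc16a1, -1.68 for Pfkp, -1.53 for Aldoc, -1.42 for Pdk3 and -1.08 for Pfkfb4.

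Among the 4 libraries of each stimulus at 24 h, 66 groups of values (33 genes in 2 sets) were searched for a library far from the others by Dixon's test, which chance passes in about 1 of 20 groups. It was passed by 1 group: Slc2a6 in library 56, at 746 CPM where the others were at 908 to 930 CPM.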

How the results depend on the processing

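No paired analysis was possible because the groups share no replicate numbers: the numbers in the titles name single libraries. No source used here links a library to a mouse. For the counts of called genes in each comparison of stimulus, time and genotype at 6 h, no setting moved a count past 1.5 times except the threshold: with the adjusted p alone the counts were 18 higher at 24 h (9 in the report), 15 higher in the difference of the responses (9), 14 higher and 6 lower between the times without the stimulus (8 and 1), 12 lower between the times with it (4), and 1 higher with the loss of NFAM1 without the stimulus (0). Of all genes tested the adjusted p alone took in 37.7% as higher at 24 h and 34.5% as higher in the difference. Between the times it took in 33.4% as higher and 29.2% as lower without the stimulus, and 36% as lower with it. With the loss of NFAM1 without the stimulus it took in 0.0391% as higher. Grouping the stimulated libraries at 24 h by the title gave 2 genes past both 2-fold and the adjusted p, and the tag gave 0. The count of 1 between single libraries used the fold alone and is not comparable.

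Log2 values that changed sign were mostly near 0. With own-total scaling of the libraries they were, for the stimulus at 6 h, Pfkm -0.35, Eno2 -0.71, Pkm -0.705, Pdk1 -0.131, Pdha1 -0.57 and Pdhb -0.712; at 24 h, Pgam1 -0.011, Ldha -0.054 and Slc16a3 -0.105; in the difference, Slc2a3 0.128 and Pkm 0.213; between the times, Eno1 -0.012 and Eno2 0.000 without and Aldoc 0.096 with the stimulus. Centring on medians gave Gapdh 0.125 at 6 h, Slc2a1 -0.122, Pfkm -0.095 and Hif1a -0.008 in the difference, Eno1 -0.007 and Hk1 -0.12 between the times. Quantile normalization gave Pkm -1.243, Pdha1 -0.067 and Pdhb -0.157 at 6 h, Eno1 -0.082, Ldha -0.099 and Slc16a3 -0.085 at 24 h, Pkm 0.463 in the difference, and Eno1 -0.026, Eno2 -0.246 and Pdhb 0.028 between the times. Log2 of CPM plus 1 gave Egln3 -0.238 in the difference. The cause was not tested, beyond the shift of all genes that each scaling makes.

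Leaving out each library in turn, the ranges that crossed 0 were -0.062 to 0.104 for Eno2, -0.023 to 0.074 for Pkm and -0.003 to 0.04 for Pdhb at 6 h, -0.086 to 0.448 for Slc16a3 and -0.422 to 0.052 for Pdk1 at 24 h, -0.121 to 0.12 for Slc2a1, -0.539 to 0.000 for Slc2a3 and -0.103 to 0.245 for Pfkm in the difference, -0.022 to 0.034 for Eno1, -0.191 to 0.236 for Eno2 and -0.036 to 0.009 for Pdhb between the times without and -0.025 to 0.135 for Hk1 and -0.629 to 0.076 for Aldoc with the stimulus. Over all values of single genes, 1942 of 2034 kept direction and side of the threshold under the other settings and 2711 of 2784 without a library. Among the 33 genes depth was least behind Egln3 and Aldoc, with as few as 2 and 16 reads in a library.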
